A study of Mus musculus with 4 samples.

Results

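The genes described here are 35 mouse genes of glycolysis, lactate transport and pyruvate use, from glucose carriers to the kinases that gate pyruvate entry into mitochondria, together with Hif1a. They were chosen by name, and all 35 were found by symbol among the 21887 protein-coding genes of the mouse nuclear genome. Accessibility at them was read from ATAC-seq, in which the transposase Tn5 cuts and tags open DNA, in macrophages grown from bone marrow of C57BL/6 mice for 5 days with 10% M-CSF. The knockout (KO) cells carried the genotype Slc6a8-/y, a knockout of the X-linked gene of the transporter that brings creatine into cells, and the controls were wild-type (WT). Cells of both genotypes were given IL-4 at 10 ng/mL for 6 h or left untreated, and 50000 cells went into each library. The 4 groups are KO IL-4, KO untreated, WT IL-4 and WT untreated, with 1 library in each. The labels give no age and no number of animals, and whether the cells of a library were pooled is not stated. The study asked how open chromatin differs in polarizing macrophages that lack the creatine transporter.

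With 1 library per group, no difference below has a replicate check, no p-value was computed, and each comparison is between these libraries. The lists held 10443 peaks in KO IL-4, 13714 in KO untreated, 9930 in WT IL-4 and 17339 in WT untreated, and the number of reads behind each list is unknown. A longer list holds more weak peaks, so the main counts are also given at equal list lengths, that is with the 9930 highest-scoring peaks of every library. No library had a peak at Slc6a8 or within 10 kb of it, so the deleted gene offered no check of the labels. Of 12 macrophage markers, 3 had a peak at a gene end in KO IL-4, 5 in KO untreated, 2 in WT IL-4 and 8 in WT untreated. All genes had 29.0%, 34.8%, 28.4% and 38.2% in the same order. At equal list lengths the markers numbered 3, 3, 2 and 2, against 28.3%, 29.9%, 28.4% and 29.3% of all genes. Csf1r and Aif1 had no end peak in any library. Among markers of other cells that a marrow culture could hold, every library had an end peak at 1 of 6 T-cell markers, WT untreated at 1 of 7 neutrophil and 1 of 5 B-cell markers, and KO untreated at 2 of 5 dendritic-cell markers, the other libraries at 1. The markers with an end peak in every library were Cd3d (T cell) and Xcr1 (dendritic cell). Neither had a peak at its annotated start in any library. The 4 fibroblast and 4 erythroid markers had none. The part of other cells in the results was not tested. A region that is closed and a region that is open in fewer cells cannot be told apart in these bulk libraries.

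Glycolysis splits glucose into pyruvate in the cytosol and yields ATP without oxygen. Pyruvate is then reduced to lactate by lactate dehydrogenase and exported, or enters mitochondria through the pyruvate dehydrogenase complex, which the Pdk kinases switch off. Macrophages activated by bacterial products raise glycolysis under hypoxia-inducible factor, while IL-4 macrophages rely more on oxidative metabolism but still take up glucose. Many glycolytic genes carry hypoxia response elements, short sites with the core ACGTG or GCGTG to which hypoxia-inducible factor binds.

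Open chromatin was found at the starts of most of these genes in every library. A start peak is a peak over a window that runs from 250 bases before to 50 bases after an annotated RefSeq start, and 33 members had such a window. This measure was added after the data were seen. Start peaks were found at 25 of the 33 members in KO IL-4 (75.8%, 95% interval 57.7 to 88.9), 24 in KO untreated (72.7%, 54.5 to 86.7), 20 in WT IL-4 (60.6%, 42.1 to 77.1) and 26 in WT untreated (78.8%, 61.1 to 91.0). Over all 17492 protein-coding genes with a window the shares were 29.3%, 35.1%, 28.4% and 38.4% in the same order. Intervals here and below are exact binomial ones (Clopper-Pearson), which reflect counting error and nothing else. At equal list lengths the members with a start peak numbered 24, 20, 20 and 24, against 28.6%, 30.5%, 28.4% and 29.8% of all genes. In all 4 libraries 18 of the 33 members (54.5%) had a start peak, against 23.1% of all genes, and 6 (18.2%) had none in any, against 58.0%. Those 6 were Aldoc, Tpi1, Eno2, Eno3, Slc16a3 and Pdk4.

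By the other measure, a peak within 1 kb of either end of the gene span, the shares of members were lower. End peaks were found at 20 of 35 members in KO IL-4 (57.1%, 39.4 to 73.7), 21 in KO untreated (60%, 42.1 to 76.1), 15 in WT IL-4 (42.9%, 26.3 to 60.6) and 22 in WT untreated (62.9%, 44.9 to 78.5). Over all 21887 genes the shares were 29.0%, 34.8%, 28.4% and 38.2% in the same order, and in WT IL-4 the interval of the members took in that share. Equal list lengths left 19, 17, 15 and 19 members with an end peak, against 28.3%, 29.9%, 28.4% and 29.3% of all genes. The ends miss starts that lie inside the span, as at Hk1, Aldoa, Ldha, Pfkfb2, Pfkfb4 and Hif1a.

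Start peaks were part of a wider set of peaks at the member loci, each locus being the gene span with 10 kb on each side. Of 43 locus peaks in KO IL-4, 25 lay at a start of the member itself, 9 inside the span, 5 in the flanks and 4 over the start of another gene. Of 55 in KO untreated the counts were 25, 16, 7 and 7, of 35 in WT IL-4 they were 20, 7, 5 and 3, and of 65 in WT untreated they were 26, 19, 14 and 6. The 25 of KO untreated include a peak at a second start of Pfkfb3. The number of own-start peaks thus spanned 20 to 26, while peaks inside the span numbered 7 to 19. The 4 comparisons below share libraries in pairs and are not independent of each other.

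**Figure D1:**
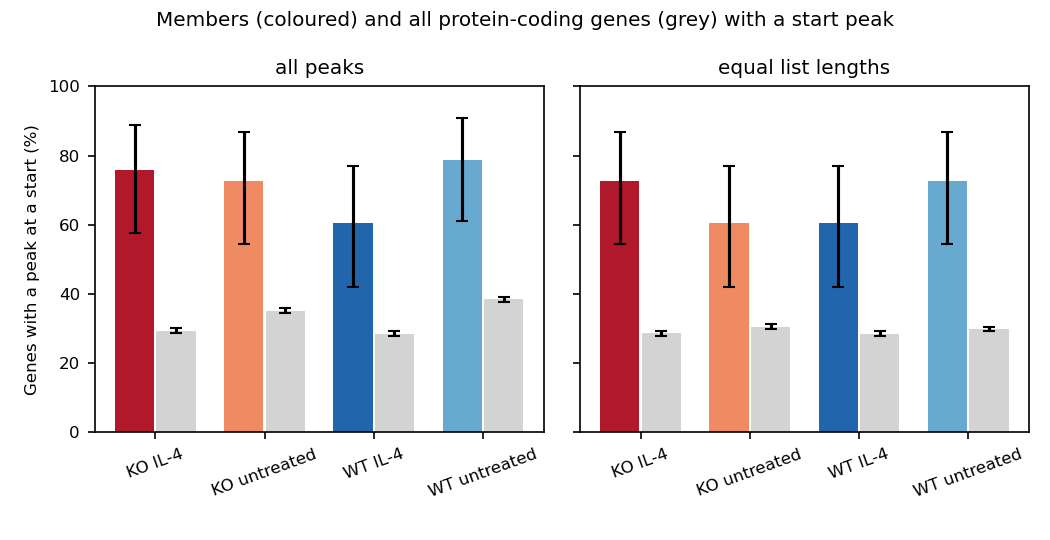
Share of genes with a peak at a start (vertical axis, percent) in the 4 libraries, for the 33 members with a start window (coloured bars) and all 17492 protein-coding genes with one (grey bars), with all peaks (left) and with the 9930 highest-scoring peaks of each library (right). Error bars are exact 95% intervals for counting error, and the member bars run from 60.6% to 78.8% against 28.4% to 38.4% for all genes.

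The score quoted with a peak is the authors' deposited value, which starts at 50 and ranks peaks only within a library. Its percentile is its rank among all peaks of that library. Scores are therefore not compared between libraries. The sequences before 8 starts are printed to show what the open and the variable starts look like. They are the first 4 listed, which had a peak in all 4 libraries, and 4 whose peak was missing from 1 or 2 of them. Each is the 250 bases before the start from RefSeq (GRCm38.p6, the coordinates of mm10), 5′ to 3′ on the gene's strand, and capitals mark ACGTG or GCGTG on either strand.
Pfkfb4 (chr9:108991652-108991901, plus strand): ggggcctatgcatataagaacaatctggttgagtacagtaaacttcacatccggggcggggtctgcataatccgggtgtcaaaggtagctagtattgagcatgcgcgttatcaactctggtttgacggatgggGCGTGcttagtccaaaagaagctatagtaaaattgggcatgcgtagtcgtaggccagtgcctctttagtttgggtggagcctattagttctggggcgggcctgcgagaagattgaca
Pgk1 (chrX:106186850-106187099, plus strand): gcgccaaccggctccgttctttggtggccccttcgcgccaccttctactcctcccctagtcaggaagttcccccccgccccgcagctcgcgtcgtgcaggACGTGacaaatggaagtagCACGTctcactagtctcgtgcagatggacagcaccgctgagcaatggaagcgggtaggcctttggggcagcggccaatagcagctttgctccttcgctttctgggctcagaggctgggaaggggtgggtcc
Slc2a1 (chr4:119108495-119108744, plus strand): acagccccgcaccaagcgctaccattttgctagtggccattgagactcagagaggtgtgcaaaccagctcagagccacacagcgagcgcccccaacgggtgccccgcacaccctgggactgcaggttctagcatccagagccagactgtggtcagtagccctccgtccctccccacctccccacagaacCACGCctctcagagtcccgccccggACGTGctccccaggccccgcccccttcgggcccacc
Hif1a (chr12:73907617-73907866, plus strand): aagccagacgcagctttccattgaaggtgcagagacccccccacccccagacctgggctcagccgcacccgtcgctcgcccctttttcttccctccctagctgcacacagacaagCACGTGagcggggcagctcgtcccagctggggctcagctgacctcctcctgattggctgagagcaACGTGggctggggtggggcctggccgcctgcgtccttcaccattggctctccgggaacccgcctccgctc
Ldha (chr7:46845554-46845803, plus strand): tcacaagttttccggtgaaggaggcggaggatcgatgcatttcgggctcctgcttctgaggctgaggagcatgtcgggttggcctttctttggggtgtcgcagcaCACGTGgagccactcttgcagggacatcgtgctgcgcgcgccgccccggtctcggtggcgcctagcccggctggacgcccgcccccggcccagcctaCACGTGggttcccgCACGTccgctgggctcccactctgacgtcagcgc
Slc16a1 (chr3:104638414-104638663, plus strand): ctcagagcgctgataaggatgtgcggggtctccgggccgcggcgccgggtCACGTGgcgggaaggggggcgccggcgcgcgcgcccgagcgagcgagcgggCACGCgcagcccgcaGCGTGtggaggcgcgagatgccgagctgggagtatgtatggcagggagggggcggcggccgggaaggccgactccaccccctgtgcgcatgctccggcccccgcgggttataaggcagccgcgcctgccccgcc
Ldhb (chr6:142507958-142508207, minus strand): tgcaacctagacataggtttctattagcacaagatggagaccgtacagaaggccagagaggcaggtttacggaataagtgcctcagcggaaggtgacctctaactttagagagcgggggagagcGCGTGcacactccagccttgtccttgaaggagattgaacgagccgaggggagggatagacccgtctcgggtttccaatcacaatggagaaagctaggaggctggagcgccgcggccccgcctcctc
Pfkfb1 (chrX:150587993-150588242, plus strand): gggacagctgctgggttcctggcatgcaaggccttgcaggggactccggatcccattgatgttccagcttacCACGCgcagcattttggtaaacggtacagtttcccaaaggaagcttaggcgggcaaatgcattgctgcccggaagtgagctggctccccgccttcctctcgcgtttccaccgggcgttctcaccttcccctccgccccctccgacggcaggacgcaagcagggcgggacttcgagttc

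All 8 windows held at least 1 core of this kind. The count was 1 in Pfkfb4, 2 in Pgk1, 2 in Slc2a1, 3 in Hif1a, 5 in Ldha, 4 in Slc16a1, 1 in Ldhb and 1 in Pfkfb1. The palindrome CACGTG, an E-box, counts as 2 because it reads as a core on both strands, and it occurred at Hif1a, Slc16a1 and, in 2 copies, Ldha. Of the 52 windows of the members, some of which overlap, 39 (75%) held ACGTG or GCGTG, against 44.0% of the 21263 windows of all protein-coding genes. ACGTG was in 38.5% of member windows and 17.8% of all windows, and GCGTG in 50.0% and 33.8%. Among windows with a peak in all 4 libraries the shares with either core were 85.0% of 20 for members and 65.7% for all genes, and among windows with none 50.0% of 18 and 32.2%. Base composition moved with this: the median GC content was 65.4% in member windows with a peak in all 4 libraries and 53.4% in member windows with none, and the median number of CpG dinucleotides was 19 and 3. In the windows of all genes the median GC content was 62.0% and 50.8% in the same order, and the median number of CpG 19 and 4. The part of base composition in the motif shares was not tested.

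The other motifs were searched on both strands of the same 250 bases, and no difference in their shares was tested. The GC box GGGCGG was in 46.2% of member windows and 42.6% of all windows. The PU.1 site GAGGAAG was in 17.3% and 10.3%, the STAT6 site, TTC and GAA spaced by any 4 bases, in 7.69% and 5.39%, the AP-1 site TGANTCA in 1.92% (1 window) and 6.13%, and CACGTG in 13.5% (7 windows) and 6.63%. The searches overlap, since every CACGTG also holds ACGTG. A match is a stretch of letters and not a bound site.

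Among the glucose transporters, Slc2a1 and Slc2a6 were open at the start in every library. Slc2a1 encodes GLUT1, the main basal glucose carrier of many cells (chromosome 4, 119108745 to 119137330), and its start peak scored 101 in KO IL-4, 153 in KO untreated, 79.6 in WT IL-4 and 246 in WT untreated. A second Slc2a1 peak, 16.9 kb into the gene in KO and 17 kb in WT, was found only in the untreated libraries, with a score of 57.2 in KO and 119.8 in WT. Slc2a6, which encodes GLUT6, had start peak scores of 65.0 in KO IL-4, 131 in KO untreated, 71.3 in WT IL-4 and 99.2 in WT untreated. Slc2a3, the gene of the high-affinity carrier GLUT3, has no start window in the table. It had no peak within 1 kb of either end in any library, but a peak inside the gene was present in all 4, with scores of 105 in KO IL-4, 107 in KO untreated, 70.2 in WT IL-4 and 127 in WT untreated. Outside the span a stronger peak scored 243 in KO IL-4, 386 in KO untreated, 139 in WT IL-4 and 309 in WT untreated.

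Hexokinase traps glucose in the cell as glucose 6-phosphate, and Hk1 and Hk2 were open at the start in all 4 libraries while Hk3 was not. The Hk2 start peak scored 129 in KO IL-4, 204 in KO untreated, 94.8 in WT IL-4 and 249.6 in WT untreated. An intragenic Hk2 peak 10.2 to 10.3 kb from the start scored 126 in KO IL-4, 129 in KO untreated and 131 in WT untreated, with none in WT IL-4. The Hk1 start peak scored 145 in KO IL-4, 211 in KO untreated, 123 in WT IL-4 and 245 in WT untreated, and it lay at the internal start near the antisense gene Hk1os, far inside the annotated span. Hk3, a hexokinase of myeloid cells, had a start peak in the untreated libraries only, at 62.9 in KO and 91.4 in WT. Gpi1, the isomerase of the next step, had one in every library, at 89.2 in KO IL-4, 54.3 in KO untreated, 61.8 in WT IL-4 and 91.1 in WT untreated. The 54.3 of KO untreated stood at percentile 8.02 of that library, near the floor of the list.

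The phosphofructokinases catalyse the committed step of glycolysis, and they differed among themselves. Pfkp, the platelet type, had a start peak in all 4 libraries at 114 in KO IL-4, 129.6 in KO untreated, 109 in WT IL-4 and 133 in WT untreated, and both of its intragenic peaks, 24 and 30 kb from the start, were also found in all 4. Pfkl, the liver type, had start peak scores of 90.8 in KO IL-4, 91.8 in KO untreated and 90.8 in WT untreated, with none in WT IL-4. Pfkm, the muscle type, had one near the floor at 52.7 in KO IL-4 and 55.3 in WT untreated, with none in KO untreated and WT IL-4. The Pfkm peaks within 1 kb of the gene end, 106.9 in KO untreated and 82.9 in WT untreated, lay over the start of its neighbour Senp1. The WT IL-4 library thus had a start peak at 1 of the 3 genes, KO IL-4 at 3, KO untreated at 2 and WT untreated at 3. Over all genes the shares were 28.4%, 29.3%, 35.1% and 38.4% in the same order. At equal list lengths the 4 counts were 1, 3, 2 and 2, against 28.4%, 28.6%, 30.5% and 29.8%.

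Fructose 2,6-bisphosphate is the strongest allosteric activator of phosphofructokinase, and the Pfkfb enzymes make and remove it. Pfkfb4 had the highest-scoring start peak of the whole set in KO IL-4, KO untreated and WT untreated and the second highest after Hif1a in WT IL-4. It lay inside the annotated span (chromosome 9, 108988272 to 109032236) at 256 in KO IL-4, 341 in KO untreated, 221 in WT IL-4 and 469.9 in WT untreated, at percentiles of 95.6, 96.5, 93.6 and 98 in the same order. Pfkfb3, the isoform with the highest kinase activity, had scores of 52.1 in KO IL-4, 101 in KO untreated, 84.3 in WT IL-4 and 92.2 in WT untreated, of which the KO IL-4 value stood at percentile 4.62. A Pfkfb3 peak 18.3 kb into the gene scored 95.3 in KO IL-4, 128 in KO untreated, 70.7 in WT IL-4 and 150.02 in WT untreated. A second annotated Pfkfb3 start, inside the span, had a peak in KO untreated alone, with a score of 62.6 at percentile 20.7.

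Pfkfb2 had start peak scores of 57.0 in KO IL-4, 99.0 in KO untreated and 71.8 in WT untreated, with none in WT IL-4. Pfkfb1, known as the liver and muscle isoform, had scores of 61.0 in KO IL-4 and 149 in WT untreated, with none in KO untreated and WT IL-4, at the second of its 4 annotated starts on the X chromosome. Tigar, whose product breaks down fructose 2,6-bisphosphate, had start peaks of 108 in KO IL-4, 101 in KO untreated, 63.9 in WT IL-4 and 150.3 in WT untreated. WT IL-4, the shortest list, therefore lacked a start peak at 2 of these 5 genes, KO untreated at 1, and KO IL-4 and WT untreated at none. Over all genes a start peak was found at 29.3% in KO IL-4, 35.1% in KO untreated, 28.4% in WT IL-4 and 38.4% in WT untreated. At equal list lengths 4, 4, 3 and 4 of the 5 had one in the same order, against 28.6%, 30.5%, 28.4% and 29.8%.

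The aldolase and triose steps gave a start peak at 1 gene of 3. Aldoa, the ubiquitous aldolase, had one in all 4 libraries at 78.6 in KO IL-4, 137 in KO untreated, 102 in WT IL-4 and 164 in WT untreated. KO untreated also had a peak of 138 within 10 kb of Aldoa, but it lay over the start of Ppp4c. Aldoc, the brain form, had no start peak, and its single end peak of 60.01 in KO IL-4 lay over the start of the neighbour Pigs. Tpi1, which encodes triose phosphate isomerase, had no start peak in any library. The nearest peak found in all 4 lay 8.3 to 8.4 kb downstream of its start, beyond the gene, with scores of 145 in KO IL-4, 178 in KO untreated, 117 in WT IL-4 and 155 in WT untreated.

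The lower steps of glycolysis were open at the same 5 of 7 genes in every library, with all peaks and at equal list lengths. Pgk1, whose enzyme makes the first ATP of the pathway (chromosome X, 106187100 to 106203699), had start peak scores of 107 in KO IL-4, 192 in KO untreated, 104 in WT IL-4 and 310.1 in WT untreated. Pgam1, a mutase, had 111 in KO IL-4, 192 in KO untreated, 158 in WT IL-4 and 251 in WT untreated, and Eno1, the ubiquitous enolase, had 135 in KO IL-4, 169.7 in KO untreated, 145 in WT IL-4 and 227 in WT untreated. The percentiles of the 3 genes ran from 63.4 to 92.6. The median start peak over all genes stood at 63.2 in KO IL-4, 67.4 in KO untreated, 63.8 in WT IL-4 and 70.1 in WT untreated, so Pgk1 in WT IL-4 lay just below it and in KO IL-4 just above. Gapdh had scores of 93.1 in KO IL-4, 111 in KO untreated, 60.2 in WT IL-4 and 98.8 in WT untreated. Pkm, the gene of the pyruvate kinase that macrophages use, had 87.6 in KO IL-4, 102 in KO untreated, 100.3 in WT IL-4 and 152 in WT untreated. Its percentiles were 51.3, 55.1, 61.3 and 70.9 in the same order, below the median over all genes except in WT untreated. The median over all member start peaks was 55.5, 67.3, 62.8 and 70.1, in no library above that over all genes. The neuronal enolase gene Eno2 had no peak at its locus in any library, and the locus peaks of the muscle gene Eno3 all lay over the starts of Spag7, Rnf167 or Slc25a11.

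**Figure D2:**
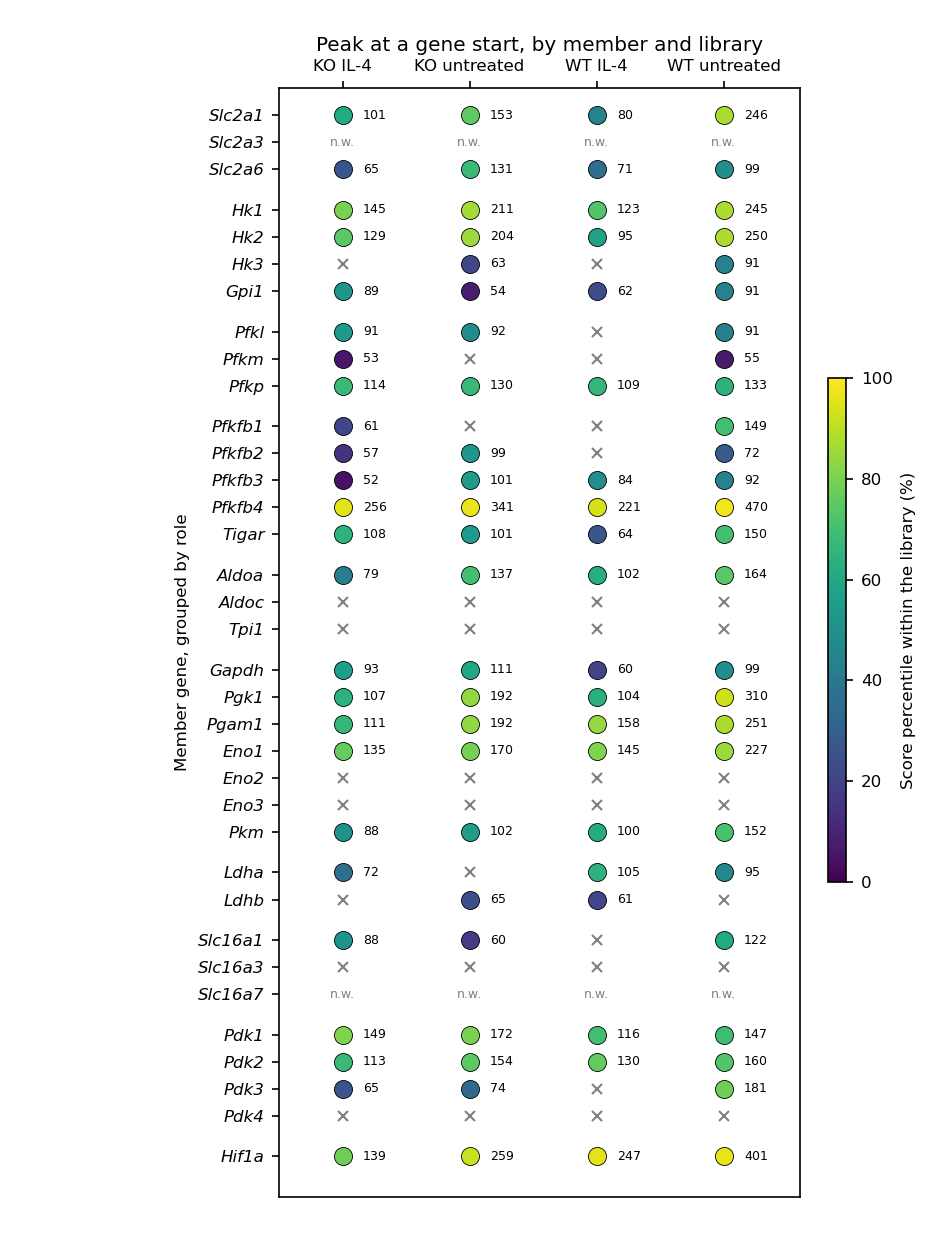
Start peaks of the 35 members (rows, grouped by role) in the 4 libraries (columns). A filled circle is a start peak, coloured by the percentile of its score within its library (percent) with the score beside it, a cross is no start peak, and n.w. marks Slc2a3 and Slc16a7, which have no start window. The rows of Pgk1, Pgam1, Eno1, Pkm and Gapdh are filled throughout, while WT IL-4 has crosses at Pfkl, Pfkm, Pfkfb1, Pfkfb2, Slc16a1 and Pdk3.

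The lactate dehydrogenase genes each lacked a start peak in 1 or 2 libraries. Ldha, which favours lactate production, had a start peak (in WT IL-4 at chromosome 7, 46845443 to 46846151) at 72.1 in KO IL-4, 105 in WT IL-4 and 94.98 in WT untreated, with none in KO untreated. KO untreated lacked it but had a peak 6.8 kb upstream, at 91.8. The same upstream region, 6.7 to 6.8 kb before the start, scored 64.1 in WT IL-4 and 94.9 in WT untreated and was missing from KO IL-4. A further peak 12.1 to 12.3 kb upstream was found in the WT libraries only, at 97 in WT IL-4 and 124 in WT untreated. Ldhb, which favours pyruvate, had a start peak of 64.8 in KO untreated and 60.7 in WT IL-4, with none in KO IL-4 and WT untreated. Both Ldhb scores stood in the lower part of their libraries, at percentiles of 23.9 and 20.9.

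Monocarboxylate transporters carry lactate and pyruvate across the plasma membrane. Slc16a1, the gene of MCT1 (chromosome 3, 104638664 to 104658462), had start peak scores of 88.0 in KO IL-4, 60.2 in KO untreated and 122 in WT untreated, with none in WT IL-4. Slc16a3, the gene of the lactate exporter MCT4, had no start or end peak in any library. A peak 10.0 to 10.1 kb before its start was found in all 4, with scores of 54.9 in KO IL-4, 84.05 in KO untreated, 90.0 in WT IL-4 and 59.6 in WT untreated. Slc16a7, the gene of MCT2, has no start window, and in the KO libraries a peak of more than 1 kb lay across one end of its span, with scores of 157 (KO IL-4) and 132 (KO untreated). WT untreated had a peak of 53.5 just beyond the same end, and WT IL-4 had none. An intragenic Slc16a7 peak was present in all 4 libraries at 167 in KO IL-4, 189.9 in KO untreated, 135 in WT IL-4 and 200.4 in WT untreated.

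Pyruvate dehydrogenase kinases shut the mitochondrial entry of pyruvate. Pdk1 had a start peak in all 4 libraries at 149 in KO IL-4, 172 in KO untreated, 116 in WT IL-4 and 147 in WT untreated, as did Pdk2 at 113 in KO IL-4, 154 in KO untreated, 130.2 in WT IL-4 and 160.3 in WT untreated. Pdk3, on the X chromosome, had 64.7 in KO IL-4, 74.2 in KO untreated and 181 in WT untreated, with none in WT IL-4. Pdk4, the isoform raised by fasting, had no locus peak in any library. Hif1a, which encodes the oxygen-regulated subunit of hypoxia-inducible factor, had start peak scores of 139 in KO IL-4, 259 in KO untreated, 247 in WT IL-4 and 401 in WT untreated. Its start lies inside the annotated span (chromosome 12, 73901324 to 73947554), and the Hif1a end peak of 55.02, found in WT untreated alone, was 6.5 kb from that start.

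**Figure D3:**
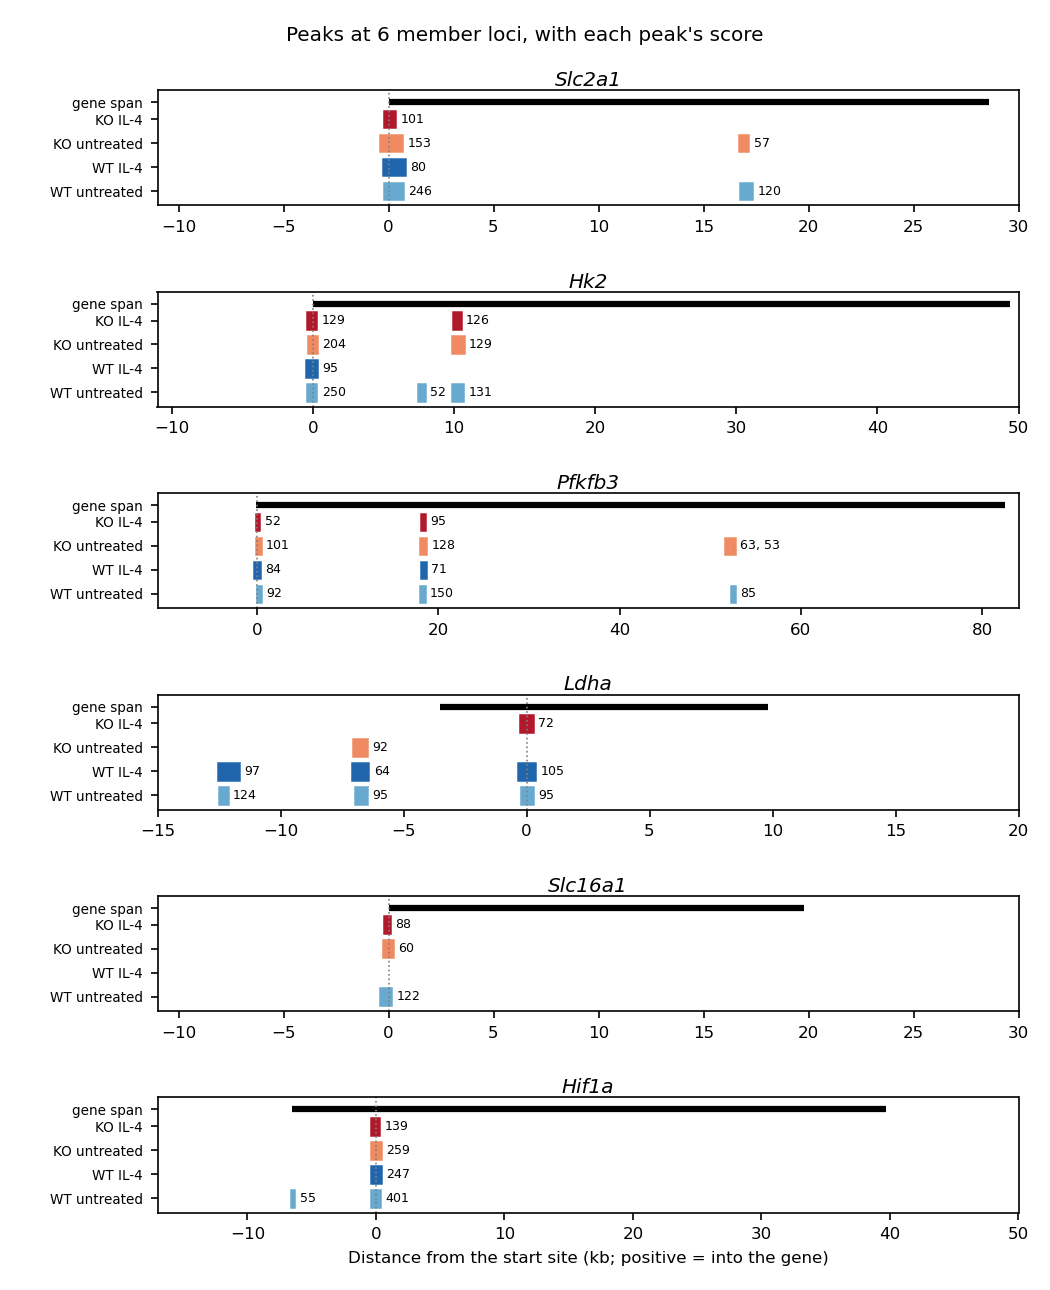
Peaks at 6 member loci in the 4 libraries, drawn to scale by distance from the start site (horizontal axis, kb, positive into the gene). Coloured boxes are peaks with their scores beside them and the black line is the gene span. Slc2a1, Hk2, Pfkfb3 and Hif1a have a box at 0 in every library, Ldha has none there in KO untreated and Slc16a1 none in WT IL-4.

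Between the KO libraries with and without IL-4, 5 members had a start peak in only 1 of the 2. A member with several annotated starts counts once, with a peak at any of them. The peak at the second Pfkfb3 start, in KO untreated alone, therefore does not enter, since Pfkfb3 had another start peak in both libraries. A peak found in the first library and not in the second is called gained, the reverse lost. Percentages of genes gained or lost are over all genes, with or without a peak, and members had peaks more often than all genes. In KO IL-4 against KO untreated, start peaks were gained at Pfkm (52.7), Ldha (72.1) and Pfkfb1 (61.0) and lost at Hk3 (62.9) and Ldhb (64.8). That is 3 of 33 gained (9.09%, interval 1.92 to 24.3) against 2.09% of all genes, and 2 lost (6.06%, 0.743 to 20.2) against 7.92%. Of members with a start peak in KO IL-4, 3 of 25 were gains, against 366 of 5127 over all genes. Of those with one in KO untreated, 2 of 24 were losses, against 1386 of 6147. At equal list lengths 5 were gained, against 3.51% of all genes, and 1 was lost, against 5.41%. The 5 were the same 3 with Gpi1 and Slc16a1, whose KO untreated peaks of 54.3 and 60.2 fell below the score that equal lengths require. The 1 lost was Pfkfb3, whose KO IL-4 peak of 52.1 fell just short of the 52.2 that equal lengths require there.

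By the ends of the gene span, within 1 kb, KO IL-4 gained 2 members, against 2.1% of all genes, and lost 3, against 7.9%. It gained 4, against 3.71%, and lost 2, against 5.23%, at equal list lengths. With all peaks the gains were Aldoc and Pfkfb1 and the losses Hk3, Pfkm and Ldhb. The Aldoc and Pfkm end peaks lay over the starts of Pigs and Senp1. The members' loci held 43 peaks in KO IL-4, against 55 in KO untreated. The log2 ratio was -0.36 (-0.97 to 0.25), beside -0.38 for all gene loci, and 0.0 (-0.67 to 0.67) with 40 peaks in each at equal list lengths. Of the 43 peaks 5 (11.6%) had no counterpart in KO untreated, against 15.6% over all gene loci, and of the 55 peaks 17 (30.9%) had none in KO IL-4, against 35.6%.

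The WT library with IL-4 lacked 7 start peaks that the untreated WT library had, and it had 1 that the other lacked. Lost in WT IL-4 against WT untreated were Hk3 (91.4), Pfkl (90.8), Pfkm (55.3), Slc16a1 (122), Pfkfb1 (149), Pfkfb2 (71.8) and Pdk3 (181), and Ldhb (60.7) was gained. The 7 are 21.2% of the 33 (8.98 to 38.9), against 11.1% of all genes, and the 1 gained is 3.03% (0.0767 to 15.8), against 1.16%. Of members with a start peak in WT untreated, 7 of 26 lost it, against 1940 of 6712 over all genes. Of those with one in WT IL-4, 1 of 20 was a gain, against 203 of 4975. At equal list lengths 5 of the 7 were still lost, against 5.12% of all genes, without Pfkm and Pfkfb2, and Ldhb was again the 1 gained, against 3.73%. Among genes with a WT untreated start peak at those lengths, 5 of 24 members lost it, against 895 of 5217 over all genes. By span ends 8 were lost, against 11.0% of all genes, and 1 was gained, against 1.17%. The end-based losses had Slc16a7 and Hif1a in place of Pfkfb2. By ends and at equal list lengths 5 were lost, against 4.94%, and 1 was gained, against 3.96%.

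Losses in WT fell on start peaks scoring under 200. All 8 member start peaks of 200 or more in WT untreated had a counterpart in WT IL-4, as did 98.5% of such peaks over all genes. Between 100 and 200, 6 of 9 were kept, against 73.2%, and below 100, 5 of 9, against 32.6%. In KO the same bands gave 4 of 4, 13 of 13 and 5 of 8, against 99.2%, 87.9% and 48.4% over all genes. The 8 include the peak at the second Pfkfb3 start, which was not kept. At the WT loci 35 peaks were found with IL-4 and 65 untreated, a log2 ratio of -0.89 (-1.53 to -0.28), beside -0.75 for all gene loci. At equal list lengths there were 35 and 39, and the ratio was -0.16 (-0.86 to 0.54). Of the 65 peaks 31 (47.7%) had no counterpart in WT IL-4, against 45.1% over all gene loci, and 1 of the 35 (2.86%) had none in WT untreated, against 9.06%.

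Between untreated KO and WT macrophages, 4 members had a start peak in only 1 of the 2 libraries. The peak at the second Pfkfb3 start, in KO untreated alone, again does not enter. KO untreated lacked the start peaks of Pfkm (55.3 in WT untreated), Ldha (94.98) and Pfkfb1 (149), and it gained that of Ldhb (64.8 in KO untreated). This is 9.09% lost, against 5.77% of all genes, and 3.03% gained, against 2.54%. Of members with a start peak in WT untreated, 3 of 26 were losses, against 1010 of 6712 over all genes. Of those with one in KO untreated, 1 of 24 was a gain, against 445 of 6147. At equal list lengths 5 were lost, against 3.44% of all genes, and 1 gained, against 4.13%. The losses were then Hk3, Gpi1, Slc16a1, Ldha and Pfkfb1, of which the last 2 are shared with the count over all peaks, and the gain was Pfkfb2. By span ends 1 was gained, against 2.4% of all genes, and 2 were lost, against 5.78%. By ends and at equal list lengths 2 were gained, against 4.08%, and 4 were lost, against 3.56%. Member loci held 55 peaks in KO untreated and 65 in WT untreated, with a log2 ratio of -0.24 (-0.79 to 0.3) beside -0.3 for all gene loci, and 0.04 (-0.64 to 0.71) at equal list lengths. Of the 55 peaks 6 (10.9%) were gained, against 14.0% over all gene loci, and of the 65 peaks 16 (24.6%) were lost, against 29.1%.

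After IL-4 the start peaks of 6 members were present in KO and absent in WT, and 1 was the reverse. The 6 were Pfkl (90.8 in KO IL-4), Pfkm (52.7), Slc16a1 (88.0), Pfkfb1 (61.0), Pfkfb2 (57.0) and Pdk3 (64.7), and the reverse case was Ldhb (60.7 in WT IL-4). The 6 are 18.2% of the 33 (6.98 to 35.5), against 5.21% of all genes, and the 1 is 3.03% (0.0767 to 15.8), against 4.34%. Of members with a start peak in KO IL-4, 6 of 25 had none in WT IL-4, against 912 of 5127 over all genes. Of those with one in WT IL-4, 1 of 20 had none in KO IL-4, against 760 of 4975. All 6 also had a start peak in WT untreated, and KO untreated also lacked 2 of them, Pfkm and Pfkfb1. WT IL-4 is the shortest list. The same 6 were found at equal list lengths, against 4.78% of all genes, where 2 were reversed, against 4.6%. The highest of the 6 scores, that of Pfkl, stood at percentile 53.7 of its library. WT IL-4 also had the lowest share of its peaks on the X chromosome, where Pfkfb1 and Pdk3 lie, at 1.65% against 1.77% in KO IL-4, and its part was not tested.

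By span ends KO IL-4 against WT IL-4 gave 6 gained, against 5.09% of all genes, and 1 lost, against 4.43%. The counts were 6, against 4.7%, and 2, against 4.72%, at equal list lengths. With all peaks Slc16a7 and Aldoc were gained in place of Pfkm and Pfkfb2. At the loci 43 peaks in KO IL-4 and 35 in WT IL-4 gave a log2 ratio of 0.3 (-0.38 to 0.98), beside 0.07 for all gene loci, and 0.19 (-0.5 to 0.89) at equal list lengths. Of the 43 peaks 13 (30.2%) had no counterpart in WT IL-4, against 27.4% over all gene loci, and 5 of the 35 (14.3%) had none in KO IL-4, against 24.2%.

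Counting only start peaks with a score of 100 or more in each library left 12 members in KO IL-4, 17 in KO untreated, 12 in WT IL-4 and 17 in WT untreated. These are 36.4%, 51.5%, 36.4% and 51.5% of the 33, against 16.4%, 23.5%, 15.6% and 27.9% of all genes. End peaks at this score were found at 10 of 35 members in KO IL-4 (28.6%, 14.6 to 46.3) and 15 in KO untreated (42.9%, 26.3 to 60.6). The counts were 7 in WT IL-4 (20%, 8.44 to 36.9) and 13 in WT untreated (37.1%, 21.5 to 55.1). Over all genes the shares were 15.8%, 22.8%, 15.1% and 27.3% in the same order, and every interval but that of KO untreated took in this share. A fixed score takes a different part of each list, so a member gained or lost by this count may have a peak below it in the other library. KO IL-4 gained none (0.989% of all genes) and lost Aldoa, Gapdh, Pkm, Slc2a6 and Pfkfb3 against KO untreated (8.12%). All 5 had a start peak below 100 in KO IL-4. WT IL-4 gained Ldha (0.469%) and lost Hk2, Slc2a1, Slc16a1, Pfkfb1, Pdk3 and Tigar against WT untreated (12.8%). Of these 6, Hk2, Slc2a1 and Tigar had a start peak below 100 in WT IL-4 and the other 3 had none.

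Between the genotypes, KO untreated gained Gapdh, Slc2a6 and Pfkfb3 at this score against WT untreated (1.88% of all genes) and lost Slc16a1, Pfkfb1 and Pdk3 (6.24%). KO IL-4 gained Hk2, Slc2a1 and Tigar against WT IL-4 (3.98%) and lost Aldoa, Pkm and Ldha (3.17%). Except for Pfkfb1, each of these members had a start peak below 100 in the other library of the pair. For Gapdh, Slc2a6 and Pfkfb3 these peaks scored 98.8, 99.2 and 92.2 in WT untreated. By span ends the gains and losses at this score were 0 (1.02%) and 5 (8.04%) in KO IL-4 against KO untreated, and 0 (0.407%) and 6 (12.5%) in WT IL-4 against WT untreated. They were 5 (1.8%) and 3 (6.25%) in KO untreated against WT untreated, and 4 (3.79%) and 1 (3.13%) in KO IL-4 against WT IL-4.

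**Figure D4:**
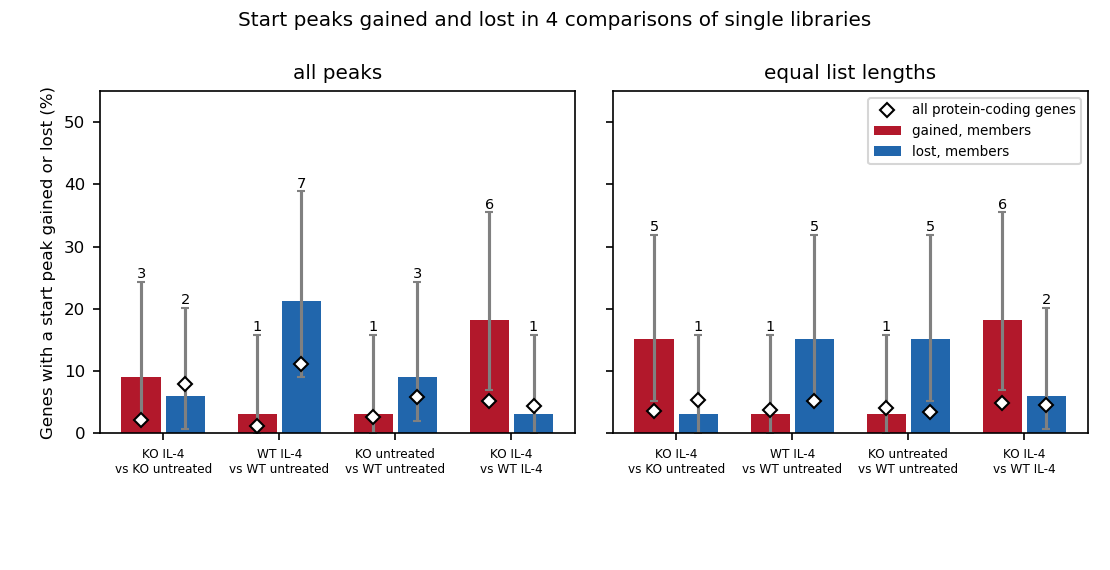
Share of the 33 members with a start peak gained (red) or lost (blue) in each comparison (vertical axis, percent), with all peaks (left) and at equal list lengths (right). Numbers are members, error bars exact 95% intervals for counting error, and diamonds the share over all 17492 protein-coding genes. The blue bar of WT IL-4 against WT untreated stands for 7 members and the red bar of KO IL-4 against WT IL-4 for 6. All shares count genes without a start peak in either library too, and members had start peaks more often than all genes.

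Merging the peaks of the 4 libraries gave 72 regions at the member loci. A peak of every library was present in 29 of them (40.3%, against 35.6% of the 16642 regions at all gene loci), and 14 (19.4%, against 30.2%) came from 1 library. KO IL-4 alone supplied 1 (1.39%, against 3.02%), KO untreated 3 (4.17%, against 7.02%), WT IL-4 0 (against 2.63%) and WT untreated 10 (13.9%, against 17.5%). Both untreated libraries and neither IL-4 library had a peak in 11 regions (15.3%, against 10.4%), among them the intragenic Slc2a1 peak and the Hk3 start. Both IL-4 libraries and neither untreated one had a peak in 0 of the 72, against 0.505% over all gene loci. The KO libraries shared 2 regions that the WT libraries lacked (2.78%, against 1.18%), and the WT libraries 2 that the KO libraries lacked (2.78%, against 2.5%).

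Of 63 further genes of the pathway and its surroundings, 30 had a peak at a gene end in KO IL-4, 35 in KO untreated, 30 in WT IL-4 and 36 in WT untreated. Over all genes the shares were 29.0%, 34.8%, 28.4% and 38.2% in the same order. At equal list lengths the counts were 29, 31, 30 and 30, against 28.3%, 29.9%, 28.4% and 29.3%. End peaks more frequent than over all genes were thus not particular to the 35 members. Among the 63, Mpc2, a subunit of the mitochondrial pyruvate carrier, had high-scoring start peaks in all 4 libraries, at 507 in KO IL-4, 636 in KO untreated, 456 in WT IL-4 and 767 in WT untreated. The pyruvate dehydrogenase genes Pdha1, Pdhb, Dld and Pdhx were open at the start in every library. Dlat, the gene of the acetyltransferase of that complex, had a start peak in the untreated libraries only, at 92.95 in KO and 111 in WT, also at equal list lengths. Of 55 such genes with a start window, KO IL-4 gained 1 (Slc16a10), against 2.09% of all genes, and lost 6 (Dlat, Egln3, Mxi1, Pdpr, Pgls and Pgm2), against 7.92%, compared with KO untreated. WT IL-4 gained 0, against 1.16%, and lost 9 (Dlat, Egln1, Eno4, G6pdx, Mxi1, Pdpr, Pgls, Tkt and Vhl), against 11.1%, compared with WT untreated. Equal list lengths left 5 losses in KO (Dlat, Hif1an, Mxi1, Pdpr and Pgm2), against 5.41% of all genes, and 4 in WT (Dlat, Eno4, Pgls and Tkt), against 5.12%. With all peaks Dlat, Mxi1, Pdpr and Pgls were lost in both genotypes, but Dlat alone was so at equal list lengths. KO untreated gained Egln3, against 2.54%, and lost Egln1, G6pdx, Slc16a10 and Vhl, against 5.77%, compared with WT untreated. At equal list lengths it gained Mxi1, Pdpr and Pgm2 instead, against 4.13%, and lost Pgls and Slc16a10, against 3.44%. KO IL-4 gained Eno4 and Tkt, against 5.21%, and lost Pgm2, against 4.34%, compared with WT IL-4. Equal list lengths again gave Eno4 and Tkt as gains, against 4.78%, with Hif1an and Pgm2 as losses, against 4.6%.

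In the pentose phosphate branch, Pgd, Rpia, Rpe and Taldo1 had start peaks in all 4 libraries. G6pdx, which encodes its first enzyme, had one of 62.7 in WT untreated alone, and Tkt had none in WT IL-4. Among the regulators of the hypoxia response, Arnt, the partner of Hif1a, had scores of 166 in KO IL-4, 211 in KO untreated, 149 in WT IL-4 and 343 in WT untreated. Egln1 and Vhl, whose products mark Hif1a for destruction, had start peaks of 67.9 and 76.1 in WT untreated alone. Both scores, and that of G6pdx, are below the limit of that library at equal list lengths.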

How the data were processed

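ATAC-seq peak lists of 4 libraries of mouse bone marrow-derived macrophages were analysed, 1 library per group. The submitters' processing notes name Bowtie2 2.2.5, MACS 1.4.2 and HOMER and the build mm10, without parameters or roles. Each deposited list gives the position and score of each peak as the authors' processing wrote it. No file header states the unit of the score, and the notes do not say whether libraries were brought to 1 depth first. The score was used only to rank or filter peaks within a list, and the number of reads is unknown.

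Genes came from the RefSeq table of GRCm38.p6, whose coordinates are those of mm10. It gives spans without exons or strand, so no peak is placed in an exon or intron. A locus is the span with 10 kb on each side, an end peak lies within 1 kb of either end, and an overlap needs 1 base. Start windows, 250 bases before to 50 after each RefSeq start, were added after the data were seen. They exist for 33 members (52 windows), and 7 short motifs were searched in the 250 bases before the start. Equal list lengths keep the 9930 highest scores per library, which drops scores below 52.2 in KO IL-4, 67.8 in KO untreated and 89.6 in WT untreated.

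By the rule for named genes, values per library are given for members whose end peak differed in a comparison, for Slc2a1, Hk2, Pfkfb3, Pkm, Ldha, Slc16a3, Pdk1 and Hif1a, and for the 5 highest end peaks of each library. Further pathway genes are named where their peak differed. Other genes given with values, such as Mpc2 and Arnt, were picked after their values were seen, as was the start-peak detail of the remaining members. The members and all gene lists were chosen with earlier results of these data known. Alternatives were other windows, overlaps, score limits and the autosomes alone. The counting of end peaks and of peaks without a counterpart was checked on simulated lists, drawn from WT untreated with 21887 genes. There 200 of 200 planted end-peak losses, 200 of 200 planted gains and 3000 of 3000 removed peaks were found. The counting of start peaks and of motifs was not part of that check. The software was SciPy 1.17.1 and pandas 2.3.3 on NumPy 2.4.6 under Python 3.11.15, with Matplotlib 3.10.9 for the figures.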

Additional observations from a re-analysis of the deposited data

Results flagged for a closer look

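At 3 members the start peak appeared with IL-4 in one genotype and disappeared with it in the other. The difference between the genotypes was not tested, since each group held 1 library.

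Pfkm, the muscle phosphofructokinase, had a start peak in KO IL-4 (52.74) and WT untreated (55.27) and none in the other two libraries. Both scores are close to the lowest score of the lists. Pfkfb1, a liver and muscle isoform of the enzyme that controls phosphofructokinase through its activator, followed the same pattern at its start and its gene end, with 60.98 in KO IL-4 and 148.97 in WT untreated. Ldhb, the lactate dehydrogenase that favours pyruvate, had the opposite pattern at its start and end, with 64.79 in KO untreated and 60.67 in WT IL-4.

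Pfkfb1 alone kept its pattern at equal list lengths, since Pfkm in WT untreated and Ldhb in KO untreated lay below the scores of 89.6 and 67.8 that those lengths require. Peaks in KO IL-4 and WT untreated alone made up 4.17% of the merged regions at member loci, against 2.78% at all gene loci. Peaks in KO untreated and WT IL-4 alone made up 1.39%, against 0.979%.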

How the results depend on the processing

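No paired analysis was possible because each group held 1 library. With unknown depth, a missing peak and a shallow library cannot be told apart. Of 108 alternative values for 36 results, 67 stayed within the counting interval of a ratio or within 1.5 times a count, 40 moved and 1 reversed. That interval is wide. It takes in a log2 ratio of locus peaks of 0.0 for KO IL-4 over KO untreated at equal list lengths and for KO untreated over WT untreated at a score of 100 or more. By this standard no value moved with ends of 2.5 kb, gene spans alone, loci of 50 kb or autosomal members alone. The causes of the moves were not tested, apart from the shorter lists that equal lengths and score limits make.

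At equal list lengths the log2 ratio of locus peaks of KO untreated over WT untreated reversed to 0.04, and that of WT IL-4 over WT untreated was -0.16. At those lengths KO IL-4 against KO untreated gave 4 end gains, 5 start gains, 1 start loss, 8 locus peaks gained and 8 lost. WT IL-4 against WT untreated gave 5 end losses, 5 locus peaks gained and 9 lost. KO untreated against WT untreated gave 2 end gains, 4 end losses, 5 start losses, 10 locus peaks gained and 9 lost. KO IL-4 against WT IL-4 gave 2 end losses and 2 start losses. A reciprocal overlap of 50% gave 2 locus peaks gained in WT IL-4 against WT untreated.

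At a score of 100 or more, 10 members had an end peak in KO IL-4, 15 in KO untreated, 7 in WT IL-4 and 13 in WT untreated, against 15.8%, 22.8%, 15.1% and 27.3% of all genes. In the same order 12, 17, 12 and 17 had a start peak, against 16.4%, 23.5%, 15.6% and 27.9%. KO IL-4 against KO untreated gave 0 end gains, 5 end losses, 0 start gains and 5 start losses. WT IL-4 against WT untreated gave 0 end gains. KO untreated against WT untreated gave 5 end gains and 3 start gains. KO IL-4 against WT IL-4 gave 3 start gains and 3 start losses. Of locus peaks at 100 or more with no counterpart of any score, 0 were gained and 3 lost in KO IL-4 against KO untreated, and 0 and 7 in WT IL-4 against WT untreated. The counts were 2 and 2 in KO untreated against WT untreated, and 2 and 0 in KO IL-4 against WT IL-4.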
